A study of Mus musculus with 24 samples.

Results

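Mouse chromosomes 10 and 16 were the autosomes picked out because their read counts were raised along their whole length in SIRT7-KO cells. They were chosen by that KO against WT difference, so every KO against WT value of the first count table given here is a description, with no test. All 1 Mb bins of both chromosomes that reached a mean of 100 reads per library in both deposited tables were followed: 128 of 131 bins on chromosome 10 and 96 of 99 on chromosome 16. Together these were 224 of the 2582 bins that passed the same minimum on chromosomes 1 to 19 and X, and 2738 bins were listed in all. The 6 bins left out were the first 3 of each chromosome, whose mean count over the 12 libraries was between 0 and 0.417, whereas the thinnest bin kept held 9290 reads in its thinnest library of the first table.

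H2AX is a histone variant that is built into nucleosomes across the genome, and its phosphorylated form γH2AX is laid down by damage-response kinases over wide domains around DNA breaks. SIRT7 is a nuclear deacylase that acts on histones and is known from work on genome stability and ribosomal DNA. In chromatin immunoprecipitation with sequencing (ChIP-seq), input DNA is the sheared chromatin before the antibody step, so its read share follows how many copies of a region the cells hold and how well the region is recovered and mapped, and a ChIP signal over a region carries the same copy number.

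All cells were female, of a C57BL6/CAST hybrid background, and of a type given as TTF, which the labels do not spell out. Every sample had received 5 Gy of X-rays and 30 min of recovery. WT and SIRT7-KO cells were each profiled for γH2AX, H2AX and input. γH2AX and H2AX were also profiled in SIRT7-KO clones c22 and c9, in the same clones carrying SIRT7-WT (KO+WT clones) and in SIRT7-HY clones c5 and c7, where the labels leave HY unexplained. Each of these is a single clone. The 24 samples formed 12 groups of 2, and the series as a whole asks how SIRT7 bears on the X chromosome of female cells.

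The promoters of 4 genes are shown because their bins were, among the bins of the listed genes, the lowest (Epha3, an ephrin receptor, and Lama2, a laminin chain) and the highest (Stk11, the kinase LKB1, and Gadd45b, a stress-response gene) in H2AX relative to input in WT cells. Each runs from 250 bases before to 50 after the gene's start in RefSeq (build GRCm38.p6), with CpG dinucleotides in capitals.
Epha3: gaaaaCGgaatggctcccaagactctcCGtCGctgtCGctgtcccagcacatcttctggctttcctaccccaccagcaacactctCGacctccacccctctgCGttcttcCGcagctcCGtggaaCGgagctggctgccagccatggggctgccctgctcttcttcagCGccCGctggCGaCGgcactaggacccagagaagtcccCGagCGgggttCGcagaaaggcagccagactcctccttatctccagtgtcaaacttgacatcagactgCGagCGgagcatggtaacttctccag
Lama2: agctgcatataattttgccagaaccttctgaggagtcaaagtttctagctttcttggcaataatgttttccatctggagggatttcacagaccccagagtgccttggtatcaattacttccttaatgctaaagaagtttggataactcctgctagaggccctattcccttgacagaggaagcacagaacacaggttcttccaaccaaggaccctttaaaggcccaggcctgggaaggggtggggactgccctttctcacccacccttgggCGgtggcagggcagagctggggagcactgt
Stk11: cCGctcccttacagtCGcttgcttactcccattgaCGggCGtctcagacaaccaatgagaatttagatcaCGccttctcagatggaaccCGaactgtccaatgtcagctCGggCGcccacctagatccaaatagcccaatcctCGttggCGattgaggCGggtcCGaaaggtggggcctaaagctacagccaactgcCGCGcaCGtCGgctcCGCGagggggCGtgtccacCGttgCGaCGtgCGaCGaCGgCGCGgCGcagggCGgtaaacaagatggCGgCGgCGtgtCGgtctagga
Gadd45b: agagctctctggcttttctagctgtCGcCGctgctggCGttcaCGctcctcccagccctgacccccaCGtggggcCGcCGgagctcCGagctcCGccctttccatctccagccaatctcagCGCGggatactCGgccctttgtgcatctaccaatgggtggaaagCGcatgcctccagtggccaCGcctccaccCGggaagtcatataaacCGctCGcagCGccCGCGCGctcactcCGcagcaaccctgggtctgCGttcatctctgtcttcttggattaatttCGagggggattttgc
They lie at chr16:63864126-63864425 (minus strand), chr10:27616893-27617192 (minus), chr10:80115545-80115844 (plus) and chr10:80929841-80930140 (plus), and hold 18, 1, 33 and 24 CpGs. Of all 32851 promoters of that length in the table, 43.5% held 10 or more CpGs, and of the 2727 on chromosomes 10 and 16 the share was 42.6%. The low pair of bins includes a promoter with few CpGs and one with many, and both promoters of the high pair, which share a bin, have many. A bin of 1 Mb does not resolve a promoter, so these sequences describe the bins and are not measured sites.

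Library totals ranged from 170013624 to 268180310 reads in the table of WT and KO cells and from 70349148 to 155364952 in the clones, which gave a median of 75040 to 124100 and of 35130 to 88000 reads per bin of chromosomes 10 and 16. The biological coefficient of variation between libraries of a group was 3.23% for WT and KO cells and 11.4% for the clones. Each WT and KO group has a column named NT and one named Xray although every label states X-rays, so both were used as replicates of their group and are called by those names. In the second table, the column of WT replicate 2 repeated the NT-named WT counts (224 of 224 bins equal, in every assay), while that of WT replicate 1 was equal to neither the NT-named nor the Xray-named one (0 of 224 bins), so each assay had 3 WT libraries for 2 labelled samples. The SD over bins of the log2 difference between NT-named and Xray-named libraries was 0.02 in input, 0.02 to 0.05 in H2AX and 0.10 to 0.12 in γH2AX. The labels do not say whether WT or KO replicates are distinct cultures, and p-values among them therefore reflect the scatter of these libraries alone. Two-sided exact permutation tests of 2 libraries against 2 cannot fall below 0.333 and were not used.

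Chromosome 10 took a larger share of autosomal reads in KO than in WT cells in all 3 assays. In input its share was 6.44% and 6.43% in the NT-named and Xray-named WT libraries and 8.40% and 8.39% in the KO libraries. In H2AX the WT libraries stood at 6.22% and 6.22% and the KO libraries at 8.18% and 8.16%. In γH2AX they stood at 6.21% and 6.31% in WT and at 8.04% and 8.18% in KO. The KO and WT libraries did not overlap in any assay, in the contrast that chose the chromosome. The input was raised about as much as both ChIP signals.

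Chromosome 16 was raised by less. Its input share was 3.65% and 3.65% in WT and 4.13% and 4.13% in KO, its H2AX share 3.54% and 3.54% against 4.02% and 4.02%, and its γH2AX share 3.59% and 3.61% against 4.12% and 4.10%. Here too no KO library reached down to a WT library. For scale, the bins of chromosomes 10 and 16 make up 5.30% and 3.98% of autosomal bins, so in WT cells chromosome 10 lay above and chromosome 16 below its share of the bins.

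**Figure D1:**
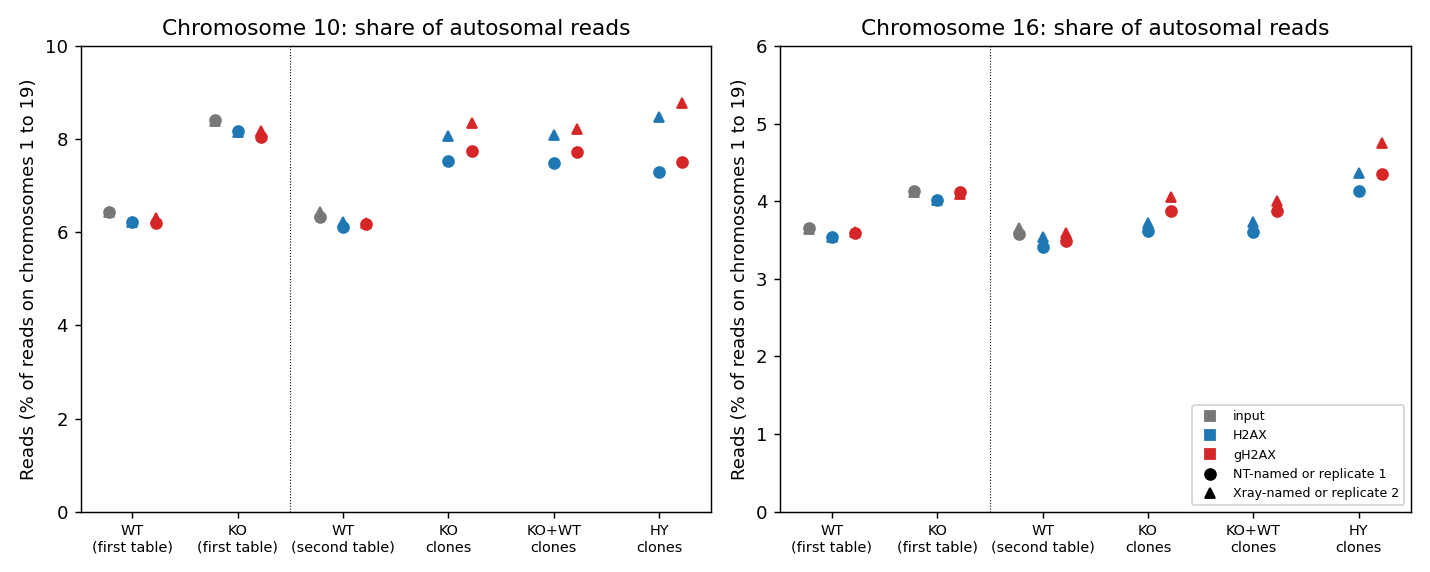
Share of autosomal reads (percent, vertical axis from 0) on chromosome 10 (left) and chromosome 16 (right) in every library of the first and second count tables, by group on the horizontal axis. Colours mark the assay, circles the NT-named or replicate 1 library and triangles the Xray-named or replicate 2 library; on chromosome 10 all KO and clone libraries sit above all WT libraries, between 7.29% and 8.78%.

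Bin by bin, the raised counts ran evenly along both chromosomes. Values are log2 differences of the mean KO and mean WT level, each level being reads per 1000000 autosomal reads (RPM). On chromosome 10 the median over 128 bins was 0.39 in input (a ratio of 1.31; range 0.16 to 0.47), 0.39 in H2AX (0.29 to 0.48) and 0.38 in γH2AX (0.24 to 0.44). On chromosome 16 the median over 96 bins was 0.18 in each assay (a ratio of 1.13 in all 3), with ranges of 0.05 to 0.28, 0.11 to 0.31 and 0.06 to 0.43. Both KO libraries lay above both WT libraries in 128 of 128 bins of chromosome 10 in each assay, and in 96, 96 and 89 of 96 bins of chromosome 16 in input, H2AX and γH2AX. Over all 2582 bins this was so in 35.8%, 34.4% and 29.9%. The other autosomes had medians of -0.07 in each assay.

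The SD of these values over bins was 0.04 in input, 0.03 in H2AX and 0.03 in γH2AX on chromosome 10, and 0.04, 0.03 and 0.05 on chromosome 16. Among the 19 autosomes, counted from the lowest SD, chromosome 10 ranked 11 in input, 4 in H2AX and 1 in γH2AX, and chromosome 16 ranked 7, 6 and 7. Each chromosome was cut, per assay, where the squared difference between its parts, weighted by their sizes, was greatest. Each part held at least 10 bins. The largest of these differences was 0.03 in input on chromosome 10 (0.36 before 52000001, 0.39 after). On chromosome 16 it was 0.04 in H2AX (0.15 before 13000001, 0.19 after). The weighting favours central cuts, so larger differences at cuts near an end were not looked for. The mean KO level lay above the mean WT level in every bin of both chromosomes in all 3 assays. Chromosomes 15 and 8 lay just outside the choice, with input medians of 0.17 and 0.17 and an SD of 0.04 and 0.04. Chromosomes 9 and 11, at medians of 0.21 and 0.16, had SDs of 0.19 and 0.29, so their raised bins did not span them evenly.

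**Figure D2:**
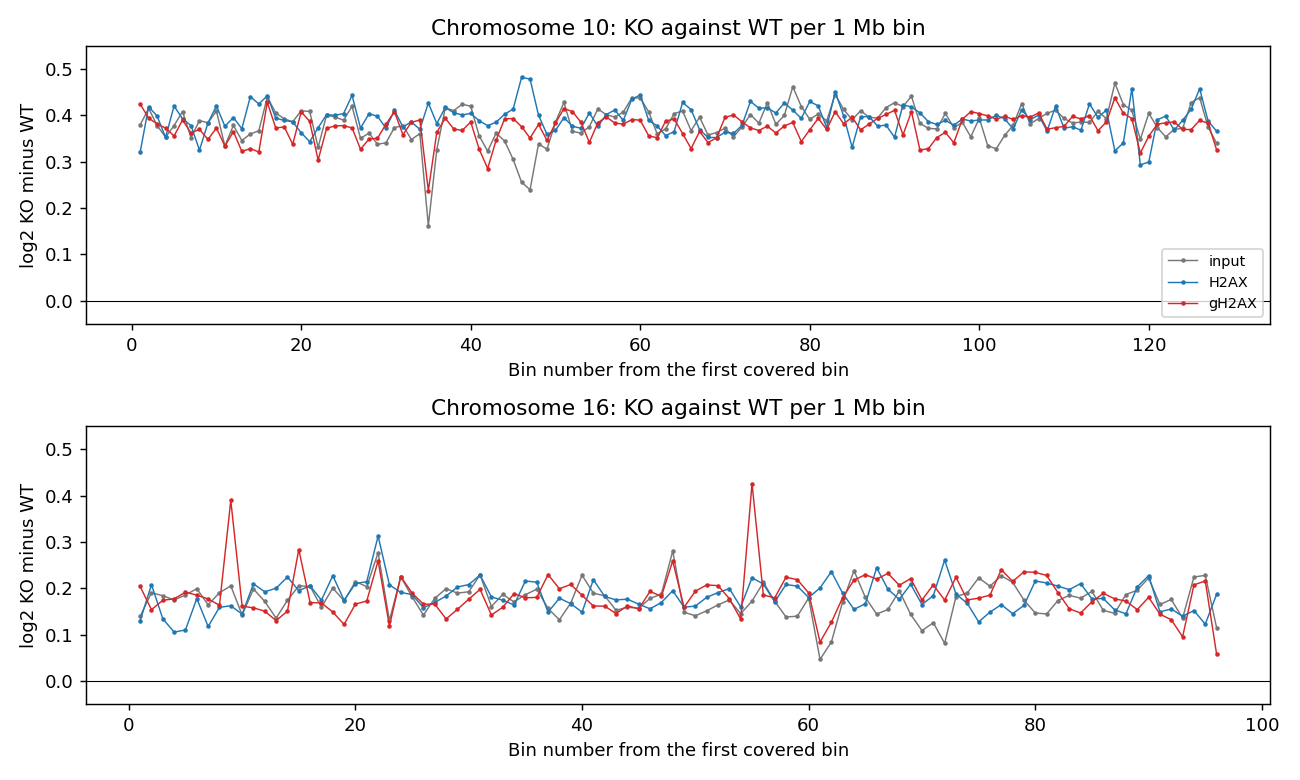
KO minus WT in log2 (vertical axis) for each 1 Mb bin of chromosome 10 (top) and chromosome 16 (bottom), in order from the first covered bin, with a line per assay. Chromosome 10 runs near 0.39 and chromosome 16 near 0.18 from end to end, with a dip in input near bin 35 of chromosome 10 and peaks of γH2AX on chromosome 16.

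A few bins stood apart. The lowest input value on chromosome 10 was in chr10:37000001-38000000, which holds Marcks, a membrane-bound substrate of protein kinase C. Its input level was 522 and 517 RPM in WT and 576 and 586 in KO, a difference of 0.16, while H2AX there was 425 and 409 in WT and 563 and 558 in KO, a difference of 0.43. In γH2AX it was 458 and 455 in WT and 556 and 521 in KO, a difference of 0.24, so this bin was raised in H2AX like its neighbours and less so in the other assays. The adjoining bins chr10:48000001-49000000 and chr10:49000001-50000000, the second with the start of Grik2, a kainate receptor subunit, showed the same order, with input at 0.26 and 0.24 and H2AX at 0.48 and 0.48.

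On chromosome 16 the lowest input value, 0.05, was in chr16:63000001-64000000, the Epha3 bin, with 419 and 405 RPM in WT and 426 and 425 in KO. The next lowest were chr16:74000001-75000000 at 0.08 and chr16:64000001-65000000 at 0.08, and the highest were chr16:50000001-51000000 at 0.28 and chr16:24000001-25000000 at 0.28. The end bins did not differ in kind: the first 3 covered bins of chromosome 10 had input values of 0.38, 0.42 and 0.38 and its last 3 bins 0.44, 0.37 and 0.34. On chromosome 16 the first 3 had 0.14, 0.19 and 0.18 and the last 3 had 0.22, 0.23 and 0.12, the last being a partial bin with 53.2 to 58.9 input RPM.

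Lists of genes on these chromosomes, 98 genes in 66 bins in all, stood near the level of their chromosome. The 12 genes of DNA damage and the cell cycle on chromosome 10, among them Mdm2 (the ubiquitin ligase of p53), Cdk1, Foxo3 and Stk11, lay in 10 bins with input values of 0.39 to 0.46 and γH2AX values of 0.37 to 0.40. The 9 on chromosome 16, among them Prkdc (the catalytic subunit of DNA-PK, a kinase of H2AX), Rnf168 (a ubiquitin ligase recruited to breaks) and Polq, lay in 7 bins with 0.14 to 0.20 and 0.13 to 0.19. Sirt1 and Sirt6, relatives of SIRT7 on chromosome 10, lay in bins at 0.41 and 0.42 in input. The 12 long genes of chromosome 16, such as Robo1 and Lsamp, had a median of 0.18 in input and 0.20 in γH2AX, and the 16 genes there with a counterpart on human chromosome 21, such as App, Sod1 and Dyrk1a, had 0.19 and 0.17. Of the other lists, fibroblast and matrix genes had input medians of 0.39 on chromosome 10 and 0.18 on chromosome 16, and signalling and transcription factor genes 0.42 and 0.20.

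Counts per parental genome were analysed only for WT cells of the second table, where columns could be tied to samples. Parental columns of KO cells and clones, tied to a group only like their totals, were not analysed here. The parental genomes were unequally represented on both chromosomes in WT cells. Of WT input reads assigned to a parental genome, genome1 took 56.9% and 56.9% on chromosome 10 and 29.5% and 29.5% on chromosome 16 (replicates 1 and 2). Which strain is genome1 is not stated in the sources used here. The median bin stood at 59.1% and 59.1% on chromosome 10 and at 30.8% and 30.8% on chromosome 16. Ranked by this median, chromosome 16 was the lowest of the 19 autosomes and chromosome 10 held rank 11 from the lowest, so the 2 chromosomes lay on opposite sides of equality. Other autosomes were unequal too. Chromosome 1 stood at 34.1%, and chromosomes 3 and 6, at 70.5% and 71.0%, lay further from equality than chromosome 16. Chromosomes 5, 12, 13 and 15 stood between 49.9% and 50.7%. The ChIP signals followed the input, with median bins of 58.9% to 59.0% (H2AX 59.0% and 59.0%, γH2AX 58.9% and 59.0%) on chromosome 10 and of 31.1% and 30.8% (H2AX) and 30.8% and 30.7% (γH2AX) on chromosome 16.

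These shares were flat over most of each chromosome. Within 3 percentage points of the chromosome's median lay 90 of 128 bins of chromosome 10, with 36 below and 2 above, and 77 of 96 bins of chromosome 16, with 19 below and 0 above. The deepest departures, picked here after their values were seen, were local and downward. On chromosome 10 the input share of genome1 fell to 15.1% and 14.4% in chr10:92000001-93000000, the bin of Nedd1, a centrosomal protein, and stood at 22.9% and 22.4% in the next bin. On chromosome 16 it was 11.2% and 10.1% in chr16:6000001-7000000 and 9.08% and 9.28% in chr16:7000001-8000000, a stretch that Rbfox1, a splicing regulator starting in the bin before, runs into. Both replicates showed each of these dips. Reads can be assigned to a genome only where the strains differ, and 17.3% to 72.8% of a bin's reads were assigned on chromosome 16 in input of replicate 1.

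**Figure D3:**
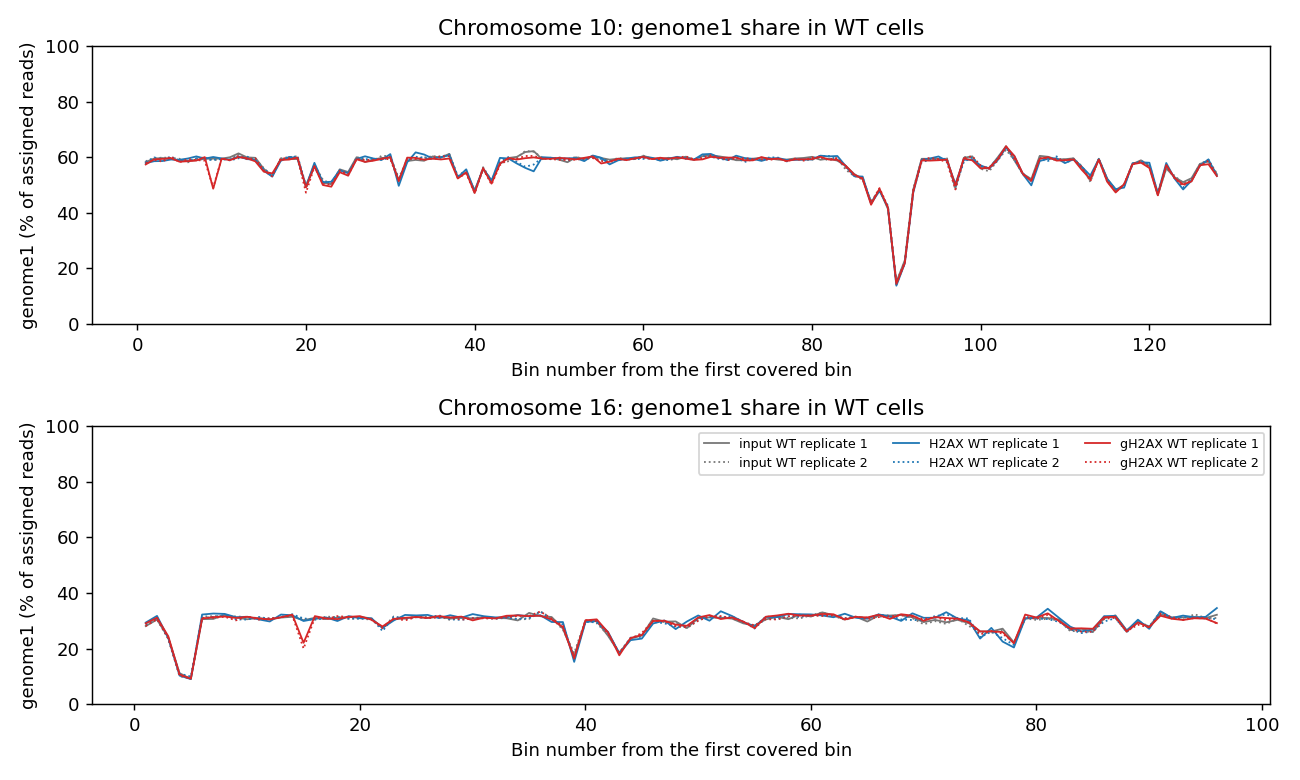
Share of genome1 among reads assigned to a parental genome (percent, vertical axis) in WT cells, per 1 Mb bin in order along chromosome 10 (top) and chromosome 16 (bottom), for input, H2AX and γH2AX of both WT replicates. The lines overlie each other near 59.1% and 30.8%, with the deep dip of chromosome 10 and that at the start of chromosome 16 in all 6 libraries.

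γH2AX departed from this balance in few bins. The mean γH2AX share of genome1 lay within 2 percentage points of the input share in 126 of 128 bins of chromosome 10 and in 94 of 96 of chromosome 16. In chr10:11000001-12000000, with Shprh, Fbxo30 and Epm2a, genome1 took 48.7% and 49.0% of γH2AX against 59.5% and 59.0% of input and 60.1% and 59.0% of H2AX. The bin chr16:17000001-18000000 holds 33 coding genes, among them Crkl and Pi4ka, and also Mir130b. There genome1 took 22.1% and 20.0% of γH2AX against 30.2% and 30.5% of input and 29.9% and 30.9% of H2AX. In both bins the γH2AX of both replicates lay below every input and H2AX library; replicate 2 is the NT-named library that also entered the choice of chromosomes. These bins were singled out after their values were seen, and no test was run.

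H2AX relative to input was compared within WT and within KO cells, a contrast that the choice of chromosomes did not use. Gene-poor bins held less H2AX than input and gene-rich bins more. By edgeR's quasi-likelihood test with Benjamini-Hochberg adjustment over 2582 bins, 80 of 128 bins of chromosome 10 and 64 of 96 of chromosome 16 differed in WT cells at an adjusted p under 0.05, against 56.4% of all bins. In KO cells 62 and 54 did, against 49.6% of all. On chromosome 10, 30 bins were higher and 50 lower in WT and 17 and 45 in KO, and on chromosome 16, 23 and 41 in WT and 16 and 38 in KO. The 144 calls in WT fell to 70, 79 and 84 without the Xray-named H2AX, the NT-named input and the Xray-named input library, and the 116 in KO to between 57 and 73 without any 1 of its 4 libraries.

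The largest deficit was in chr10:16000001-17000000, which holds no coding gene start. Its level was 565 and 546 RPM in WT input and 368 and 338 in WT H2AX, and 723 and 702 in KO input and 486 and 471 in KO H2AX. The H2AX libraries lay below the input libraries of the same cells, by -0.63 ± 0.05 on the log2 scale in WT (SE; edgeR adjusted p = 7.5e-05) and -0.58 ± 0.05 in KO (adjusted p = 9.9e-05). Lower in both were also the Lama2 bin (-0.40 in WT, -0.41 in KO), chr16:86000001-87000000 without a coding gene start (-0.44 and -0.43) and chr16:65000001-66000000 with Pou1f1 and Chmp2b (-0.32 and -0.33). The Epha3 bin stood at -0.43 in WT and -0.31 in KO.

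The largest excess was in chr10:80000001-81000000, which holds 52 coding gene starts, among them Stk11, Gadd45b and Dot1l (the H3K79 methyltransferase). WT input there was 544 and 530 RPM and WT H2AX 710 and 739, and KO input was 750 and 729 and KO H2AX 961 and 965. The difference was 0.45 ± 0.09 in WT (SE; edgeR adjusted p = 0.00221) and 0.38 ± 0.09 in KO (adjusted p = 0.00679). In chr10:121000001-122000000, with Wif1 (a Wnt inhibitor) and Tbk1 (an innate immune kinase), it was 0.35 ± 0.03 in WT (edgeR adjusted p = 7.6e-05).

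Grouped by protein-coding gene starts, the median H2AX difference from input in WT was -0.17 in the 29 bins with none, -0.07 in the 139 bins with 1 to 9 and 0.10 in the 56 bins with 10 or more, and -0.13, -0.09 and 0.09 in KO. Spearman's rho between gene number and the difference was 0.55 in WT and 0.53 in KO over the 224 bins, which share libraries, mappability and base composition, so the values are a description. Among the lists, 10 of the 17 bins of DNA damage and cell cycle genes were higher in WT and 3 lower, whereas of the 20 bins of long genes 2 were higher and 9 lower. Over all 2582 bins 787 were higher and 668 lower. The medians of the DNA damage and long gene lists were 0.11 and -0.09, beside 0.00 over all bins tested. The lists were not matched for gene number. In WT, 27 of the 56 bins with 10 or more gene starts were higher and 10 lower, and 25 of the 139 with 1 to 9 were higher and 61 lower. Of the 9 bins of fibroblast and matrix genes 1 was higher and 4 lower, with the bin of Dcn and Lum (small leucine-rich proteoglycans) standing at -0.36 and that of Col6a1 and Col6a2 (collagen VI chains) at 0.21. Of the 12 bins of genes with a human chromosome 21 counterpart 9 were higher and 1 lower, of the 9 bins of sirtuins and chromatin genes 5 and 2, and of the 16 bins of signalling and transcription factor genes 6 and 5. In KO cells the counts higher and lower were 5 and 2 for DNA damage and cell cycle, 1 and 10 for long genes, 1 and 4 for fibroblast and matrix, 6 and 3 for the chromosome 21 counterparts, 4 and 2 for sirtuins and chromatin, and 3 and 5 for signalling and transcription factors, beside 552 and 728 of all 2582 bins.

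Summed per chromosome and scaled to the autosomal total, both chromosomes held slightly less H2AX than input. Chromosomes 3, 13 and X stood lower than both, at -0.095, -0.058 and -0.084 in WT and -0.086, -0.053 and -0.045 in KO. These 3 also passed the threshold in both genotypes, as did chromosome 11 (higher). Chromosome 7 (higher) passed it in WT only and chromosome 18 (lower) in KO only. Chromosome 10 differed by -0.05 ± 0.01 in WT (SE; edgeR adjusted p over 20 chromosomes = 0.00953) and -0.04 ± 0.01 in KO (adjusted p = 0.0298), and chromosome 16 by -0.04 ± 0.01 in WT (adjusted p = 0.000488) and in KO (adjusted p = 0.00201). The chromosome 10 call was lost in WT without the NT-named H2AX library or either input library (edgeR adjusted p = 0.0535, 0.071 and 0.0504) and in KO without any 1 of the 4 libraries (0.11 to 0.146), and the WT chromosome 16 call was lost with TMM scaling (adjusted p = 0.12).

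**Figure D4:**
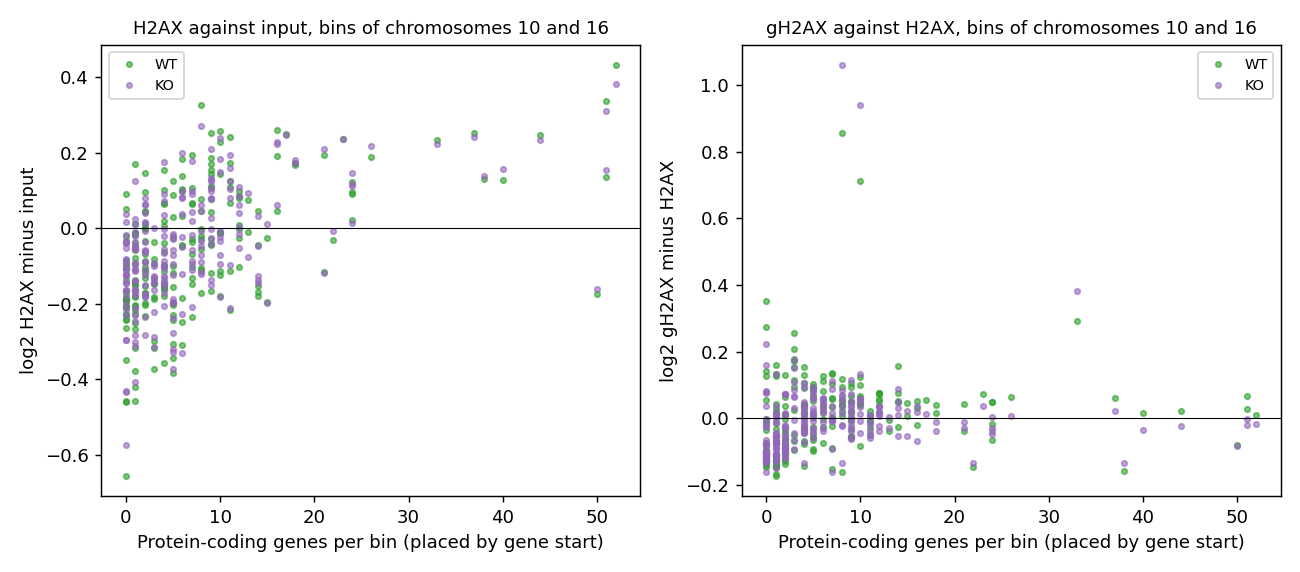
Log2 of H2AX minus input (left) and of γH2AX minus H2AX (right) against the number of protein-coding gene starts, for the 224 bins of chromosomes 10 and 16 in WT and KO cells, scaled to autosomal reads. H2AX minus input goes from mostly negative in bins with no gene start to mostly positive in bins with 10 or more, and on the right 2 bins stand above 0.70 in both genotypes.

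γH2AX relative to H2AX was raised most in a few bins of chromosome 16. In chr16:57000001-58000000, which holds Col8a1 (a collagen VIII chain) and Filip1l, γH2AX was 807 and 639 RPM in WT and 1161 and 802 in KO, whereas H2AX was 404 and 390 in WT and 461 and 465 in KO. Every γH2AX library was above every H2AX library, and the NT-named libraries were the higher in both genotypes. The difference was 0.87 ± 0.16 in WT (SE; edgeR adjusted p = 0.0105) and 1.095 ± 0.16 in KO (adjusted p = 0.00915).

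In chr16:11000001-12000000, with Gspt1 (a translation termination factor), Snn and Rsl1d1, γH2AX was 815 and 700 in WT and 1131 and 865 in KO, and H2AX 454 and 468 in WT and 511 and 521 in KO. The difference was 0.72 ± 0.11 in WT (SE; edgeR adjusted p = 0.0078) and 0.96 ± 0.11 in KO (adjusted p = 0.00324). In these bins the reads also differed in kind: 32.9% and 30.8% of WT γH2AX reads in the Col8a1 bin could be assigned to a parental genome, against 65.1% and 61.2% of H2AX reads and 57.3% and 62.5% of input reads. In the Gspt1 bin it was 45.5% and 37.8% against 74.4% and 70.8% and against 65.1% and 70.0%. The assigned share of γH2AX differed from that of input by -28.1 and -26.0 percentage points in these bins, and the next lowest of the 224 bins stood at -2.145. The part of these reads in the result was not tested.

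The bin with the unequal parental γH2AX at chr16:17000001-18000000 stood at 0.30 ± 0.04 in WT (SE, edgeR adjusted p = 0.00655). In KO it stood at 0.39 ± 0.04 (SE, edgeR adjusted p = 0.00311). Its assigned share in WT departed the other way, with 68.9% and 70.7% of γH2AX against 58.2% and 63.1% of input. This gain of 9.1 percentage points was the largest among the bins of chromosomes 10 and 16. The next highest was 3.46, in chr10:82000001-83000000. The reads of this bin thus also differed in kind, and their part in the result was not tested. The partial last bin of chromosome 16 stood at 0.36 in WT and 0.23 in KO. On chromosome 10 the smallest p-values in WT were in chr10:17000001-18000000 with Cited2, a transcriptional co-regulator (0.26 in WT, 0.16 in KO), and in the bins of Prdm1 (0.18 in WT; 0.09 in KO, edgeR adjusted p = 0.0794) and Myb (0.16 in WT, 0.11 in KO), both transcription factors. Cited2's bin was also among the most depleted of H2AX relative to input (-0.35 in WT).

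In all, 21 of 128 bins of chromosome 10 and 12 of 96 of chromosome 16 differed between γH2AX and H2AX in WT cells, where 12.2% of all bins did. In KO cells 3 and 7 did, where 3.8% of all did. These counts turned on single libraries, and those of the other settings were not made over all bins. Over the bins tested, the γH2AX difference between NT-named and Xray-named libraries ran alike in WT and KO (r of 0.959). The fit without a replicate block counted that difference as scatter. The 33 calls in WT became 85 without the NT-named γH2AX, 21 without the Xray-named γH2AX, 22 without the NT-named H2AX and 0 without the Xray-named H2AX library. The 10 in KO became 53 without the NT-named γH2AX, 4 without the Xray-named γH2AX and 0 without either H2AX library, and DESeq2 called 67 and 34. By list, 5 of 16 bins of signalling and transcription factor genes were higher in WT and 0 lower, while 2 of 9 were higher for sirtuins and chromatin, 2 of 20 for long genes with 1 lower, 1 of 9 for fibroblast and matrix and 1 of 12 for the chromosome 21 counterparts. In KO the numbers higher were 2, 0, 1, 1 and 1 in that order, with 0 lower. Over all 2582 bins 223 were higher and 93 lower in WT, and 88 and 10 in KO. In WT, 1 of the 17 bins of DNA damage and cell cycle genes was higher, that of Prkdc, Mcm4 and Ube2v2 (0.11 ± 0.03; SE, edgeR adjusted p = 0.0338). In KO that bin stood at 0.05 (edgeR adjusted p = 0.358), and 0 of the 17 bins were called.

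The chromosome sums gave chromosome 16 a γH2AX level above H2AX of 0.02 ± 0.01 in WT (SE; edgeR adjusted p = 0.0442) and 0.03 ± 0.01 in KO (adjusted p = 0.00751), and chromosome 10 of 0.01 (adjusted p = 0.52) and -0.01 (adjusted p = 0.637). Chromosome 18 also passed the threshold, at 0.03 in WT and 0.03 in KO. In KO so did chromosomes 3, 13 and 17 (higher) and 9 and 14 (lower). Without the Col8a1 and Gspt1 bins, a setting chosen after their values were seen, chromosome 16 stood at -0.0014 in WT (edgeR adjusted p = 0.868) and -0.0034 in KO (adjusted p = 0.867). The WT call was also lost without the Xray-named γH2AX or either H2AX library (edgeR adjusted p = 0.0801 to 0.144) and the KO call without either H2AX library (0.0624 and 0.0576). TMM scaling ended the WT call (edgeR adjusted p = 0.0928), and fitting only the compared groups ended both (0.721 in WT, 0.0804 in KO).

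The KO clones were set against the WT replicate 1 library, and neither entered the KO against WT contrast that chose the chromosomes. The choice was made with earlier results of these data known, so the comparison is not an independent check. Chromosome 10 took 7.74% and 8.36% of autosomal γH2AX reads in the KO clones and 6.17% in WT replicate 1, and 7.53% and 8.07% of H2AX reads against 6.10%. Chromosome 16 took 3.88% and 4.05% of γH2AX against 3.49% and 3.62% and 3.72% of H2AX against 3.41%. All clone libraries were above the WT library on both chromosomes. These were not the chromosomes with the largest fitted differences. Chromosomes 15 and X exceeded chromosome 10 in γH2AX (0.52 and 0.54), as did chromosome 15 in H2AX (0.58). Chromosomes 1, 4 and 8 also exceeded chromosome 16 in both assays, and chromosomes 11, 13, 18 and 19 did so in H2AX. The chromosome 10 difference was 0.38 ± 0.14 in γH2AX (SE; edgeR adjusted p = 0.0655) and 0.35 ± 0.14 in H2AX (adjusted p = 0.122), and that of chromosome 16 was 0.18 ± 0.13 (adjusted p = 0.347) and 0.11 ± 0.13 (adjusted p = 0.7). With 1 WT library the fit takes its spread from the clones, and none of these 4 values passed the threshold.

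The γH2AX values rested on the scaling. With TMM factors they were 0.22 for chromosome 10 and 0.02 for chromosome 16 (edgeR adjusted p = 0.273 and 0.955), while H2AX stood at 0.37 and 0.12. Adding WT replicate 2, which the choice of chromosomes had used, took chromosome 10 past the threshold in both assays (edgeR adjusted p = 0.00505 and 0.0142).

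Within the chromosomes, H2AX of the clones was spread more widely than that of WT cells. Both KO clone libraries lay above WT replicate 1 in 85 of 128 bins of chromosome 10 in H2AX and in 125 of 128 in γH2AX, and in 42 and 72 of 96 bins of chromosome 16, where all bins gave 42.8% and 56.8%. In H2AX, 43 bins of chromosome 10 were called higher and 0 lower, and 17 of chromosome 16 higher and 7 lower, against 21.6% of all bins called; leaving out KO clone replicate 2 brought the 67 calls to 0, and DESeq2 made 103. The Stk11 bin was highest, at 1.03 ± 0.21 (SE; edgeR adjusted p = 0.00822), and the bins of Col6a1 and S100b, at 0.81, and chr10:59000001-60000000, at 0.78, had p-values as small. Higher were 11 of 17 bins of DNA damage and cell cycle genes, 7 of 9 of sirtuins and chromatin, 8 of 16 of signalling and transcription factors, 6 of 12 of the chromosome 21 counterparts, 2 of 9 of fibroblast and matrix and 2 of 20 of long genes, and 2 bins of long genes were lower, beside 243 higher and 315 lower of all 2582 bins. By gene number the medians were -0.40 in bins with no coding gene start, 0.10 in bins with 1 to 9 and 0.46 in bins with 10 or more. The SD of log2 levels over the bins of chromosome 10 was 0.72 and 0.80 in H2AX of the KO clones, 0.41 in WT replicate 1 and 0.21 in the NT-named WT library, and the part of this spread in the calls was not tested. In γH2AX the edgeR test called 0 bins, against 0.426% of all, while DESeq2 called 28. The DESeq2 counts in both assays were not made over all bins. The median fitted difference was 0.22 on chromosome 10 and 0.11 on chromosome 16, beside -0.03 over all bins.

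No difference between KO+WT and KO clones passed the test on either chromosome. Chromosome 10 took 7.72% and 8.21% of γH2AX in the KO+WT clones beside 7.74% and 8.36% in the KO clones, and 7.49% and 8.09% of H2AX beside 7.53% and 8.07%. Chromosome 16 took 3.87% and 4.00% of γH2AX beside 3.88% and 4.05%, and 3.60% and 3.73% of H2AX beside 3.62% and 3.72%. The ranges of the groups overlapped throughout, and in γH2AX the KO+WT library was the lower of each like-numbered pair. The chromosome differences were -0.02 ± 0.12 and -0.01 ± 0.10 in γH2AX and -0.0022 ± 0.12 and -0.0021 ± 0.10 in H2AX (SE; edgeR adjusted p = 0.999 and 0.995 in the assays), signs that TMM scaling turned. The labels give KO and KO+WT the same clones, and with the column number as a replicate block the differences were -0.015 and -0.0097 in γH2AX and -0.0024 and -0.0022 in H2AX (edgeR adjusted p = 0.981 and 0.992 in the assays), again with 0 bins called. The edgeR test without the block called 0 of the 224 bins in both assays, against 0.0387% of all bins in γH2AX and 0% in H2AX. At an unadjusted edgeR p under 0.05 there were 2 and 4 bins on chromosomes 10 and 16 in γH2AX and 0 and 0 in H2AX. Over all 2582 bins there were 23 and 0 in the assays. DESeq2 called 0 of the 224 bins. The largest γH2AX difference was in the Stk11 bin, at 0.40 ± 0.17 (SE; edgeR adjusted p = 0.99).

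Chromosome 16 stood higher in the HY than in the KO clones, but not past the threshold in the fit without a replicate block. That fit called 0 bins of any gene list. Chromosome 16 took 4.35% and 4.75% of γH2AX in HY against 3.88% and 4.05% in KO clones, and 4.13% and 4.36% of H2AX against 3.62% and 3.72%. Neither assay's libraries overlapped. The difference was 0.20 ± 0.10 in γH2AX (SE; edgeR adjusted p = 0.352) and 0.21 ± 0.10 in H2AX (adjusted p = 0.261). It was positive in 96 of 96 bins in both assays by the edgeR fit, beside 1341 and 1432 of all 2582 bins. In γH2AX both HY libraries lay above both KO clone libraries in 51 of 96 bins, and in H2AX in 91 of 96. Over all bins the shares were 14.6% and 18.9%. Among the chromosome sums, chromosome 12 stood higher (0.29 in γH2AX and 0.30 in H2AX). Chromosomes 11 and 14 were close below, at 0.18 and 0.18 in γH2AX and 0.20 and 0.20 in H2AX. Only chromosome 15 passed the threshold, at -0.54 and -0.57. The edgeR test called 0 of the 224 bins in either assay, against 0.0387% and 0.0387% of all bins. With the column number as a replicate block, chromosome 16 passed the threshold in both assays and bins were called. The labels give HY and KO clones no such pairing. Without the block, 31 and 27 bins of chromosome 16 had an unadjusted edgeR p under 0.05, beside 273 and 292 of all 2582 bins. DESeq2 called 0 and 2 bins.

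Fitted values over the bins of chromosome 16 ran from 0.04 to 0.54 in γH2AX and from 0.02 to 0.35 in H2AX. In H2AX the highest was the bin of Sod1 (the cytosolic superoxide dismutase) and Tiam1 at 0.35 ± 0.11 (SE; edgeR adjusted p = 0.179). In γH2AX it was the partial last bin, at 0.54 ± 0.16 (adjusted p = 0.104), with 87.8 and 97.0 RPM in HY and 71.9 and 55.8 in KO clones. γH2AX relative to H2AX differed between HY and KO clones by -0.01 ± 0.15 on chromosome 16 (SE; edgeR adjusted p = 0.998).

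Chromosome 10 overlapped between HY and KO clones. It took 7.51% and 8.78% of γH2AX and 7.29% and 8.46% of H2AX in the HY clones, on both sides of the KO clones. The differences were 0.02 ± 0.12 (SE; edgeR adjusted p = 0.966) and 0.01 ± 0.12 (adjusted p = 0.952), with 70 and 87 of 128 bins positive, and 15 and 0 bins with both HY libraries above both KO clone libraries. Over all 2582 bins, 1341 and 1432 were positive, and 14.6% and 18.9% had both HY libraries above. The HY libraries differed from each other on chromosome 10 more than the KO clone libraries did, with an SD of 0.83 percentage points in H2AX against 0.38. Columns named as inputs of the clones match no labelled sample and were not analysed here, and without them the clone values were not set against DNA copy number.

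**Figure D5:**
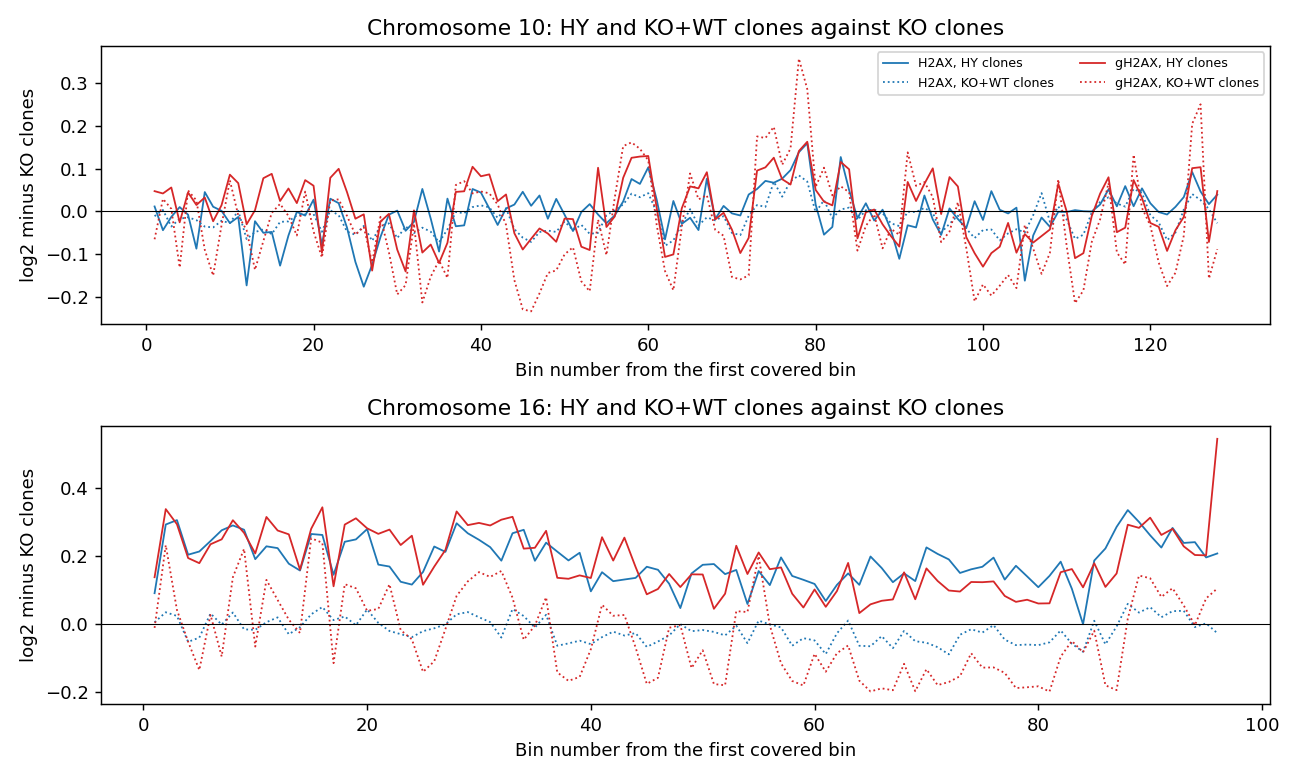
Log2 difference from the KO clones (vertical axis) of HY clones (solid) and KO+WT clones (dotted) in H2AX and γH2AX, per 1 Mb bin in order along chromosome 10 (top) and chromosome 16 (bottom), scaled to autosomal reads. On chromosome 16 the HY lines stay above 0 save for 1 bin of H2AX that lies at 0, and the KO+WT lines cross 0, while on chromosome 10 all 4 lines cross 0.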

How the data were processed

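The authors deposited raw read counts per 1 Mb bin (mm10, per the submitters' processing notes, which list Bowtie2 2.2.9 beside Trimmomatic 0.36, MACS2 2.2.7.1, SAMtools 0.1.19, FastQC 0.11.3 and deepTools 2.4.2), with counts per parental genome. How duplicates and parental reads were handled is not given in the sources used here. Of 144 value columns 42 were used. The other 102 (parental columns of the first table and of the clones, columns of unassigned reads, and columns matching no labelled sample) were not analysed here. Columns of the first table and of the clones name a group only; which clone a column number stands for is not known.

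Bins with a mean of at least 100 reads on chromosomes 1 to 19 and X were fitted with edgeR 4.0.16 (R 4.3.3; quasi-likelihood F test, TMM factors, 12 libraries sharing the spread, two-sided, Benjamini-Hochberg over 2582 bins, threshold 0.05). Chromosome sums used the autosomal total as library size, adjusted over 20 chromosomes. There were 10 comparisons, and DESeq2 1.42.0 was an alternative. Levels per 1000000 autosomal reads carry no pseudocount. Scripts were tested on simulated data. Genes of GRCm38.p6 were placed by their start, using strand where the promoter table gave one (80 of 98 listed genes), and otherwise by their lower coordinate.

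Bins named were the 3 highest and lowest in KO against WT input per chromosome, up to 5 called bins per comparison with the smallest p, the 3 end bins, and bins of the gene lists; others are said to be chosen after seeing values. The chromosomes, lists and rules were chosen with earlier results of these data known.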

Additional observations from a re-analysis of the deposited data

How the results depend on the processing

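Of 234 recomputed values, 154 kept their direction and side of the threshold or, for counts, stayed within 1.5 times, 20 changed sign, 16 lost and 7 gained a call, and 37 moved. Where a value below moved, the cause was not tested unless said. Called bins are out of 224, and in these settings they were not counted over all bins.

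DESeq2 called 67 (WT) and 34 (KO) bins in γH2AX against H2AX, 2 in HY against KO clones in H2AX, and 28 (γH2AX) and 103 (H2AX) in KO clones against WT replicate 1. With the autosomal total as library size, 5 were called in γH2AX against H2AX in KO and 14 in KO clones against WT replicate 1 in γH2AX. Fitting only the compared groups, which leaves fewer samples for the spread, gave 9 (WT) and 0 (KO) bins in γH2AX against H2AX, with chromosome 16 at 0.0229 (edgeR adjusted p = 0.721) and 0.0309 (adjusted p = 0.0804), and 184 bins in H2AX against input in KO.

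TMM scaling of chromosome sums gave chromosome 16 0.0267 in γH2AX against H2AX (edgeR adjusted p = 0.0928) and -0.0210 in H2AX against input (adjusted p = 0.12) in WT. It turned KO+WT against KO clones to 0.0280 and 0.0333 in γH2AX and to 0.00843 and 0.00892 in H2AX on chromosomes 10 and 16. KO against WT medians moved to 0.42, 0.40 and 0.39 on chromosome 10 and 0.21, 0.19 and 0.19 on chromosome 16 in input, H2AX and γH2AX. Leaving aside the Gspt1 and Col8a1 bins, chosen after seeing the data, turned chromosome 16 to -0.00143 (WT) and -0.00344 (KO) in γH2AX against H2AX.

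With both WT libraries of the second table, KO clones against WT gave 1 bin and 0.379 on chromosome 10 in γH2AX, and 134 bins and 0.341 in H2AX.

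With the replicate block, 17 bins were called in γH2AX against H2AX in KO. HY against KO clones gave 22 bins and 0.199 on chromosome 16 (edgeR adjusted p = 0.000982) in γH2AX, and 14 bins and 0.209 (adjusted p = 0.000709) in H2AX. KO clones against WT replicate 1 gave 0.312 and 0.149 on chromosomes 10 and 16 in γH2AX, and 131 bins and 0.283 on chromosome 10 in H2AX. In the first table, WT and KO libraries of like name deviated together (r of 0.486 in input, 0.681 in H2AX and 0.959 in γH2AX). For clone libraries of like number r was 0.854 and 0.936 for KO and KO+WT and 0.369 and 0.136 for KO and HY. Each rests on 2 pairs. The labels pair KO with KO+WT clones by clone, though not by column number, and there the block changed no call. WT and KO libraries of the first table share a name, NT or Xray, whose meaning the labels do not give. HY and KO clones share only a number.

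Leaving out each library in turn (a lone library is then taken to vary like the other groups) gave 0 to 85 bins (WT) and 0 to 53 (KO) in γH2AX against H2AX, with chromosome 10 at -0.00299 to 0.0213 and -0.0230 to 0.00168 and chromosome 16 at 0.0191 to 0.0268 and 0.0269 to 0.0349. H2AX against input gave 70 to 113 and 57 to 73 bins, with chromosome 10 at -0.0506 to -0.0468 and -0.0418 to -0.0371 and chromosome 16 at -0.0446 to -0.0425 and -0.0387 to -0.0367. KO+WT against KO clones gave 0 bins, with -0.0696 to 0.0409 and -0.0414 to 0.0223 in γH2AX and -0.0581 to 0.0516 and -0.0274 to 0.0229 in H2AX on chromosomes 10 and 16. HY against KO clones gave 0 bins, with -0.0998 to 0.125 and 0.134 to 0.262 in γH2AX and -0.0971 to 0.118 and 0.17 to 0.248 in H2AX. KO clones against WT replicate 1 gave 0 to 1 bins in γH2AX and 0 to 58 in H2AX, with 0.327 to 0.438 and 0.303 to 0.404 on chromosome 10 and 0.151 to 0.215 and 0.0855 to 0.126 on chromosome 16.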
